A study of Homo sapiens with 24 samples.

Results

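A list of 50 genes for chromatin modifiers, the corepressors and complex partners of histone deacetylases, and the sirtuins was followed in CD18/HPAF cells treated with ISOX. A gene belonged to the list by name, and its values were read from the row of the deposited table that carries this name. All 50 genes had a row among the 30276 rows of the table, and 49 had at least 1 FPKM (read pairs counted for a gene, divided by its transcript length in kilobases and by the size of the library) on the mean of the 2 groups, as did 11915 rows in all. CD18/HPAF is an established human cell line from a pancreatic adenocarcinoma, and ISOX (CAY10603) is a hydroxamate that blocks histone deacetylases and acts most strongly on HDAC6, mainly a tubulin deacetylase of the cytosol. The cells received 1 µM ISOX for 48 h (12 samples) or were left untreated (12 samples), and the labels name no vehicle for the untreated cells. The comparison asks what ISOX does to the transcriptome of these cells as a whole. The sample titles carry a first number with 3 values and a second with 4 in each group, and the sources used here do not say whether these were separate cultures. All samples came from the same line, kept in DMEM with serum.

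The deposited table holds 1 pooled FPKM per gene and group. These values carry neither the spread between samples nor the depth, and the columns of the authors' own comparison in the same table were not used, so that no difference below carries a test, an error or an interval. Differences are given as log2(ISOX FPKM / untreated FPKM). The median of this value over the 11915 rows was 0.21, or 1.16-fold, and 77.1% of the rows lay above 0. Each difference is therefore also given with this median subtracted, named here the centred value, and a gene is counted as past the fold when its centred value is at least 1.5-fold in either direction (0.58 on the log2 scale). As a check of the label, the 10 ductal and epithelial markers ran from 36.2 to 3325 FPKM with ISOX and from 33.9 to 2970 FPKM in untreated cells. None of the 8 acinar or 4 endothelial markers reached 1 FPKM on the mean of both groups, and of the 6 endocrine markers only INS did, whose row is joined with IGF2 so that its level cannot be given to INS. LYZ and CD14 of the 6 immune markers and LUM and COL1A1 of the 6 fibroblast markers did, while PTPRC and CD3E, which define leukocytes, were at 0.0118 FPKM or below in both groups. LYZ was at 809 FPKM with ISOX and 458 FPKM in untreated cells, and LUM at 36.8 FPKM with ISOX and 12.9 FPKM untreated. Their part in the values below was not tested.

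Histone deacetylases remove acetyl groups from histone tails and work in nuclear complexes, among them NuRD, SIN3, CoREST and NCoR, whose scaffold, histone-binding and remodeling subunits place the enzyme on chromatin. Acetyltransferases such as EP300 add the same mark, and BET proteins read it through bromodomains. Polycomb repressive complex 2 (PRC2) and the KMT2 enzymes methylate histone H3 with opposite effects on transcription, demethylases remove these marks, DNMT and TET enzymes set and oxidise DNA methylation, and SWI/SNF complexes move nucleosomes. Sirtuins are deacylases that use NAD in place of zinc, and zinc-dependent inhibitors of the hydroxamate type, to which ISOX belongs, do not act through their catalytic mechanism.

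None of the 49 genes at 1 FPKM or more was past the 1.5-fold difference, with 0 higher and 0 lower, where 10.5% of all rows were (5.59% higher and 4.9% lower). At 2-fold none was either, where 2.77% of the rows were (1.6% higher and 1.17% lower). Among the 8860 rows within the range of mean level of the 49 genes, 2.86 to 75.8 FPKM, the share past 1.5-fold was 7.7% (4.23% higher and 3.47% lower). The centred values of the 49 genes ran from −0.49 for CHD3 to 0.25 for EED, with a median of −0.08 and a standard deviation across genes of 0.19, against 0.41 across all rows and 0.36 across the rows of the same range of level. At a smaller bound, a level 25% above the median or the same fold below it (0.32 on the log2 scale), 6 of the 49 genes were counted, where 29.4% of the rows were: 6 were lower (12.2%), where 14.1% of the rows were, and 0 higher, where 15.3% were. The 6 were CHD3, ARID1A, DNMT3A, TET2, EP300 and BRD2, with centred values from −0.49 to −0.33, and TET3 lay just outside the bound at −0.32. Counted as deposited, without the median subtracted, none of the 49 was past 1.5-fold either, where 14.6% of the rows were (12.4% higher and 2.25% lower). The list was chosen with earlier results of these data known, so these counts describe the 49 genes and not their families. Of 202 further genes of related roles, given below, 3.47% were past 1.5-fold on the centred scale.

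**Figure D1:**
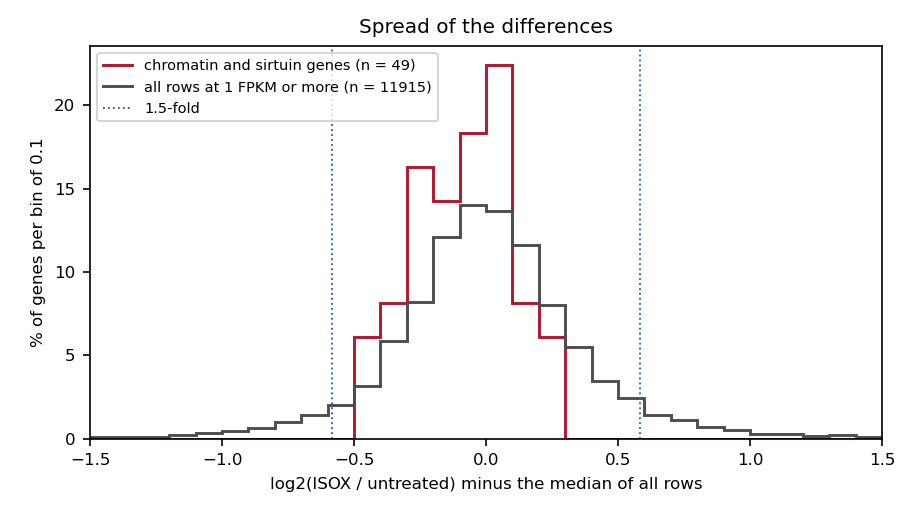
Share of genes (%) in each bin of 0.1 of the centred log2 difference between ISOX and untreated cells, for the 49 genes of the list (red) and all 11915 rows at 1 FPKM or more (grey); dotted lines mark 1.5-fold. The list lies between −0.49 and 0.25, inside both dotted lines, while the rows reach past them on both sides.

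By direction the 49 genes fell into 3 parts. There were 14 with a lower level in ISOX-treated than in untreated cells as deposited (28.6%, where 22.9% of the rows lay below 0). The other scalings tried only subtract from these values, so that the 14 could not rise above 0 under any of them. Another 17 were higher with ISOX as deposited but below the median of all rows, so that their direction turns with the scaling. The remaining 18 were above 0 on both scales, although only EED, NCOR1 and KDM5B stayed above 0 when the groups were scaled to equal sums of FPKM (log2 shift 0.39). The 14 lower genes were CHD3, ARID1A, DNMT3A, TET2, EP300, BRD2, TET3, KMT2D, KAT2A, SIRT3, SIRT7, DNMT1, CREBBP and MTA2. Of these, SIRT7, DNMT1 and CREBBP (log2 −0.03 each) and MTA2 (log2 −0.01) were nearly level as deposited. Without the spread between samples, whether neighbours in these orders differ cannot be told.

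**Figure D2:**
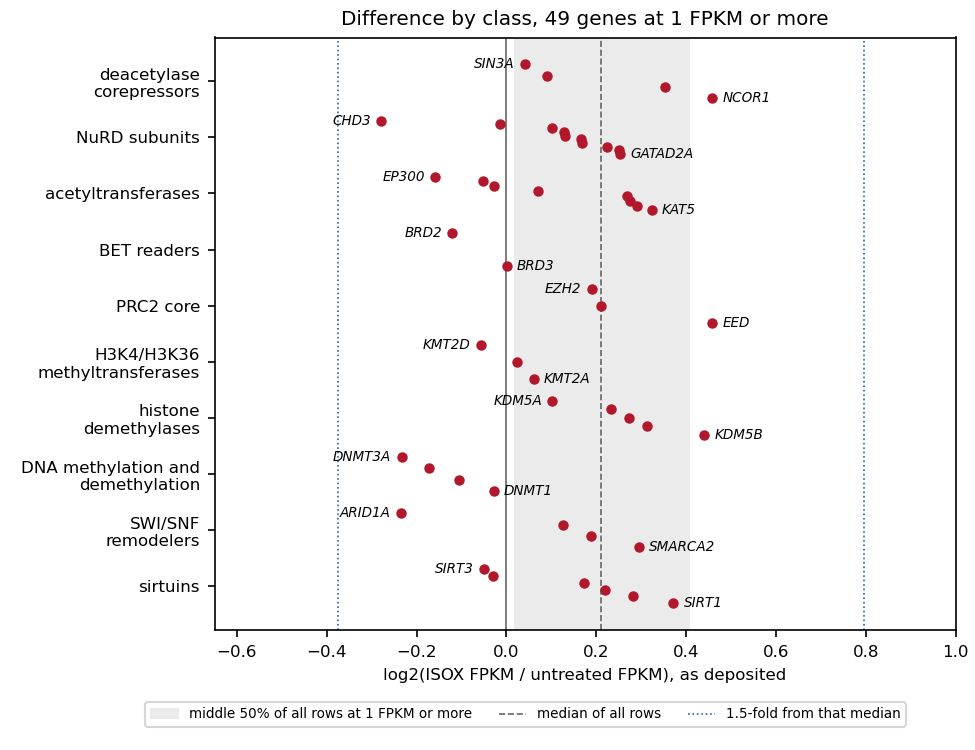
Log2 of the ISOX over the untreated FPKM as deposited, 1 point per gene, by class, for the 49 genes at 1 FPKM or more; the solid line is at 0, the dashed line at the median of all rows (0.21), the grey band holds the middle 50% of all rows and the dotted lines lie 1.5-fold from the median. All 4 DNA methylation genes shown lie below 0, and all 5 histone demethylases lie above 0 as deposited, 4 of them above the dashed line.

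Per kilobase, the genes spanned a wide range of levels. RBBP7, a histone-binding subunit of NuRD, SIN3 and PRC2, was the highest, at 82.4 FPKM with ISOX and 69.2 FPKM in untreated cells, followed by MTA2, a NuRD scaffold, at 52.7 FPKM with ISOX and 53.3 FPKM untreated. The only gene under 1 FPKM was DNMT3B, a de novo DNA methyltransferase, at 0.453 FPKM with ISOX and 0.592 FPKM untreated. Of the 49 others, 19 had a mean of at least 20 FPKM, 21 lay between 5 and 20 FPKM and 9 below 5 FPKM, and 25 lay above the median level of all rows.

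**Figure D3:**
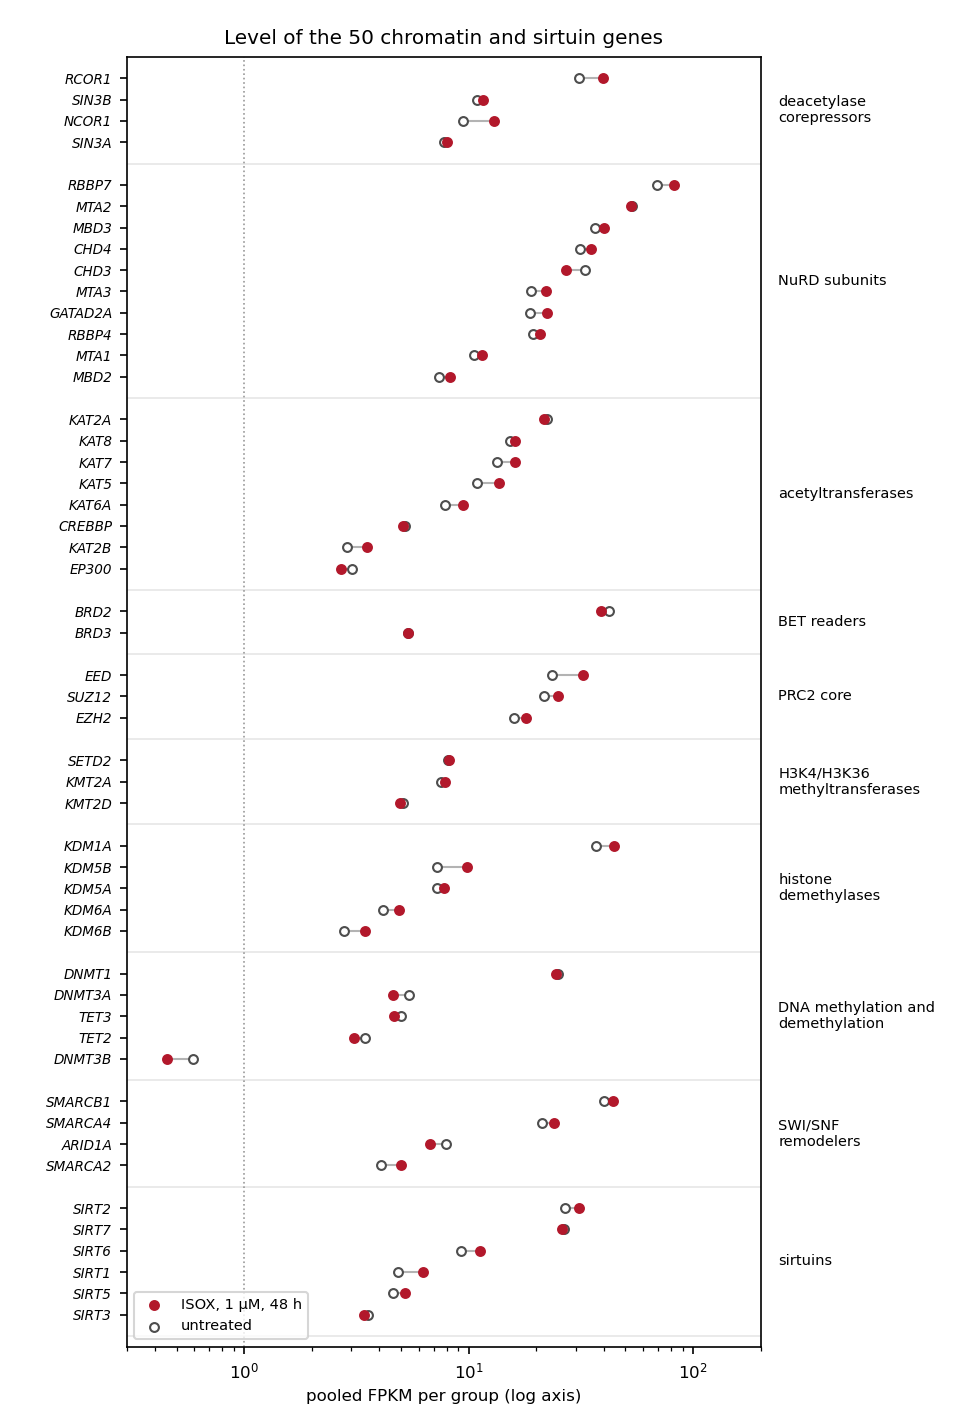
Pooled FPKM (log axis) of each of the 50 genes with ISOX (filled red) and in untreated cells (open grey), ordered by mean level within each class; the dotted line marks 1 FPKM. The filled and open points of a gene lie close together at every level, from DNMT3B at 0.453 FPKM with ISOX and 0.592 FPKM untreated to RBBP7 at 82.4 FPKM with ISOX and 69.2 FPKM untreated.

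The corepressors that tether deacetylases to transcription factors were all higher with ISOX as deposited, where 77.1% of all rows were, 2 of the 4 on the centred scale, and NCOR1 alone with equal sums. Of the 21 further corepressor genes of the wider list, 17 lay above and 4 below 0 as deposited, and 9 above and 12 below on the centred scale. NCOR1, which holds HDAC3 in its complex, was at 12.9 FPKM with ISOX and 9.42 FPKM in untreated cells (log2 0.46, centred 0.25). RCOR1, the CoREST scaffold that binds HDAC1, HDAC2 and the demethylase KDM1A, was at 39.7 FPKM with ISOX and 31.1 FPKM untreated (log2 0.35, centred 0.14). The SIN3 scaffolds differed less. SIN3A was at 8.03 FPKM with ISOX and 7.81 FPKM in untreated cells (log2 0.04, centred −0.17), and SIN3B at 11.6 FPKM with ISOX and 10.9 FPKM untreated (log2 0.09, centred −0.12). The level of RCOR1 was 4.95 times that of SIN3A with ISOX and 3.99 times in untreated cells.

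Within NuRD, which joins deacetylation to ATP-dependent remodeling, the 2 ATPases lay on different sides of 0 as deposited, though both were below 0 on the centred scale. CHD3 had the lowest centred value of the list, at 27.2 FPKM with ISOX and 33.0 FPKM in untreated cells (log2 −0.28, centred −0.49), and its row lies on chromosome 17 of hg38 from 7884805 to 7912757. CHD4, the other ATPase, was at 35.3 FPKM with ISOX and 31.5 FPKM untreated (log2 0.17, centred −0.04). The ratio of the CHD4 level to the CHD3 level was thus 1.30 with ISOX and 0.952 in untreated cells, a ratio that no scaling of the groups can move. Most stretches of the CHD4 transcript (86.4% of those of 75 bases) also occur, on either strand, in another gene of the GENCODE annotation, AC006064.6. How reads from them were assigned was not tested, since the strand setting and annotation of the authors are not stated.
The other 8 NuRD subunits lay between −0.22 and 0.04 on the centred scale. GATAD2A, which bridges the deacetylase and remodeling modules of the complex, was at 22.4 FPKM with ISOX and 18.8 FPKM in untreated cells (log2 0.25), the largest value in this class. RBBP7 had the same log2 value of 0.25, and its close relative RBBP4 one of 0.10, at 20.9 FPKM with ISOX and 19.5 FPKM untreated. Among the MTA scaffolds MTA1 had 11.5 FPKM with ISOX and 10.5 FPKM untreated and MTA3 had 22.2 FPKM with ISOX and 19.0 FPKM untreated, while MTA2 was nearly level (log2 −0.01). The methyl-CpG binding subunits MBD2, which binds methylated DNA, and MBD3, which in mammals has largely lost this binding, were at 8.31 and 40.2 FPKM with ISOX and at 7.39 and 36.7 FPKM in untreated cells, so that MBD3 stood at 4.84 times the level of MBD2 with ISOX and 4.97 times untreated.

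Of the 8 acetyltransferases, 5 lay above and 3 below 0 as deposited, where 77.1% of all rows lay above. On the centred scale KAT8 joined the lower ones, and with equal sums all 8 were below 0. The paralogous coactivators EP300 and CREBBP were both lower with ISOX: EP300 at 2.71 FPKM against 3.02 FPKM in untreated cells (log2 −0.16, centred −0.37), and CREBBP at 5.12 FPKM against 5.21 FPKM in untreated cells (log2 −0.03, centred −0.24). KAT2A (GCN5), the catalytic subunit of SAGA, was at 21.7 FPKM with ISOX and 22.4 FPKM untreated (log2 −0.05). Its paralogue KAT2B (PCAF) was higher as deposited and lower with equal sums, at 3.53 FPKM with ISOX and 2.89 FPKM in untreated cells (log2 0.29), and the ratio of KAT2A to KAT2B was 6.13 with ISOX and 7.77 in untreated cells.
The MYST family enzymes were all higher as deposited but not with equal sums, from KAT8, which acetylates lysine 16 of histone H4 (16.1 FPKM with ISOX and 15.3 FPKM untreated, log2 0.07, centred −0.14), to KAT5 (TIP60), which acts in DNA repair and transcription (13.6 FPKM with ISOX and 10.9 FPKM untreated, log2 0.32, centred 0.11). KAT6A and KAT7 lay between them, at log2 0.27 each. KAT5 shares 34.8% of its 75-base stretches, on either strand, with its neighbour RNASEH2C, and how reads from them were assigned was not tested.

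Both BET readers on the list lay below the median of all rows. BRD2 was at 38.8 FPKM with ISOX and 42.2 FPKM in untreated cells (log2 −0.12, centred −0.33), and BRD3 was at 5.38 FPKM in both groups (log2 0.00, centred −0.21). BRD2 was thus 7.21 times as high as BRD3 with ISOX and 7.84 times in untreated cells. BRD3 shares 21.6% of its 75-base stretches, on either strand, with BRD3OS, and how reads from them were assigned was not tested. BRD2 also had 6 rows, and SMARCB1 1 row, on sequences outside the primary chromosomes, and their levels were not used.

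The 3 core subunits of PRC2, which trimethylates lysine 27 of histone H3, were higher with ISOX as deposited, where 77.1% of all rows were, and EED alone was on the centred scale and with equal sums. EED, the subunit that binds the trimethylated product and stimulates the enzyme, had the largest value of all 49 genes, at 32.4 FPKM with ISOX and 23.6 FPKM in untreated cells (log2 0.46, centred 0.25). Its row lies on chromosome 11 of hg38 from 86244384 to 86278810. The catalytic subunit EZH2 was at 18.1 FPKM with ISOX and 15.9 FPKM untreated (log2 0.19, centred −0.02) and SUZ12 at 25.1 FPKM with ISOX and 21.7 FPKM untreated (log2 0.21, centred 0.00). Relative to EZH2, EED stood at 1.79 with ISOX and 1.48 in untreated cells, and SUZ12 at 1.38 with ISOX and 1.36 in untreated cells.
The 3 large methyltransferases of active chromatin differed by little. KMT2A (MLL1), which methylates lysine 4 of histone H3, was at 7.82 FPKM with ISOX and 7.50 FPKM in untreated cells (log2 0.06), and KMT2D (MLL4), which does so at enhancers, at 4.93 FPKM with ISOX and 5.13 FPKM untreated (log2 −0.06). SETD2, which trimethylates lysine 36, was at 8.22 FPKM with ISOX and 8.09 FPKM untreated (log2 0.02), and all 3 lay below the median of all rows.

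All 5 histone demethylases were higher with ISOX as deposited, where 77.1% of all rows were, 4 of them lay above the median of all rows, and KDM5B alone was higher with equal sums. Of the 16 further demethylases of the wider list, 10 lay above and 6 below 0 as deposited, and 8 above and 8 below on the centred scale. KDM5B, which removes methyl groups from lysine 4 of histone H3, was at 9.80 FPKM with ISOX and 7.23 FPKM in untreated cells (log2 0.44, centred 0.23). Its paralogue KDM5A was at 7.77 FPKM with ISOX and 7.24 FPKM untreated (log2 0.10, centred −0.11). The ratio of KDM5B to KDM5A was 1.26 with ISOX and 0.998 in untreated cells. KDM1A (LSD1), the flavin-dependent demethylase of the CoREST complex, was the most abundant of the class, at 44.6 FPKM with ISOX and 36.9 FPKM untreated (log2 0.27), and its ratio to RCOR1 was 1.12 with ISOX and 1.19 untreated. The lysine 27 demethylases KDM6A, at 4.90 FPKM with ISOX and 4.17 FPKM untreated, and KDM6B, at 3.47 FPKM with ISOX and 2.80 FPKM untreated, had log2 values of 0.23 and 0.31.

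The DNMT and TET genes of the list were lower with ISOX as deposited, 4 of 4 at 1 FPKM or more, where 22.9% of all rows lay below 0. DNMT3B lay below 0 as deposited beneath that level. The other scalings tried only subtract from these values and so could not turn their direction. Most other genes of DNA methylation in the wider list were not lower as deposited: 10 of 11 lay above 0. On the centred scale 5 of them lay above and 6 below 0, with a median of −0.03. DNMT3A, a de novo methyltransferase, was at 4.63 FPKM with ISOX and 5.44 FPKM in untreated cells (log2 −0.23, centred −0.44). TET2 and TET3, which oxidise 5-methylcytosine, were at 3.08 and 4.64 FPKM with ISOX and at 3.47 and 4.99 FPKM in untreated cells (log2 −0.17 and −0.11). The maintenance methyltransferase DNMT1, the most abundant of the class, was nearly level at 24.6 FPKM with ISOX and 25.1 FPKM untreated (log2 −0.03, centred −0.24). The median of the 4 was −0.35 on the centred scale, the lowest of the 10 classes of the list. None of these genes at 1 FPKM or more was past 1.5-fold, except DNMT3A with equal sums (−0.62).

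Of the 4 SWI/SNF genes, ARID1A alone was lower with ISOX as deposited, where 22.9% of all rows were, and SMARCA2 alone lay above the median of all rows. ARID1A, a DNA-binding subunit of the BAF form that is often mutated in pancreatic cancer, was at 6.75 FPKM with ISOX and 7.93 FPKM in untreated cells (log2 −0.23, centred −0.44). The ATPases SMARCA4 (BRG1) and SMARCA2 (BRM) were at 24.1 and 5.01 FPKM with ISOX and at 21.2 and 4.08 FPKM in untreated cells, or log2 0.19 and 0.29. SMARCA4 was thus 4.82 times as high as SMARCA2 with ISOX and 5.18 times in untreated cells. SMARCB1, a core subunit, was at 43.9 FPKM with ISOX and 40.3 FPKM untreated (log2 0.13), but its row covers chromosome 22 from 23786963 to 24005453. Of its 75-base stretches, 53.9% also occur, on either strand, in transcripts of DERL3, and how reads from them were assigned was not tested.

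The sirtuins, which the list held as 6 of the family, had 4 values above and 2 below 0 as deposited, where 77.1% of all rows lay above. There were 3 of each on the centred scale, and 6 below 0 with equal sums. SIRT1, a nuclear deacetylase, had the largest, at 6.25 FPKM with ISOX and 4.83 FPKM in untreated cells (log2 0.37, centred 0.16). SIRT6, a nuclear deacylase of histone H3, was at 11.2 FPKM with ISOX and 9.22 FPKM untreated (log2 0.28), and SIRT2, which deacetylates tubulin in the cytosol as HDAC6 does, was the most abundant at 31.2 FPKM with ISOX and 26.8 FPKM untreated (centred 0.01). The nucleolar SIRT7 was at 26.1 FPKM with ISOX and 26.6 FPKM untreated (centred −0.24). SIRT7 and SIRT2 thus had nearly the same level in untreated cells, with a ratio of 0.993, and a ratio of 0.835 with ISOX. Of the mitochondrial sirtuins, SIRT3 was at 3.44 FPKM with ISOX and 3.56 FPKM untreated (log2 −0.05, centred −0.26). SIRT5, a desuccinylase, was at 5.20 FPKM with ISOX and 4.62 FPKM untreated (log2 0.17), close to the level of the nuclear SIRT1. SIRT4, from the wider list, was below 1 FPKM in both groups, at 0.715 FPKM with ISOX and 0.910 FPKM untreated.

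**Figure D4:**
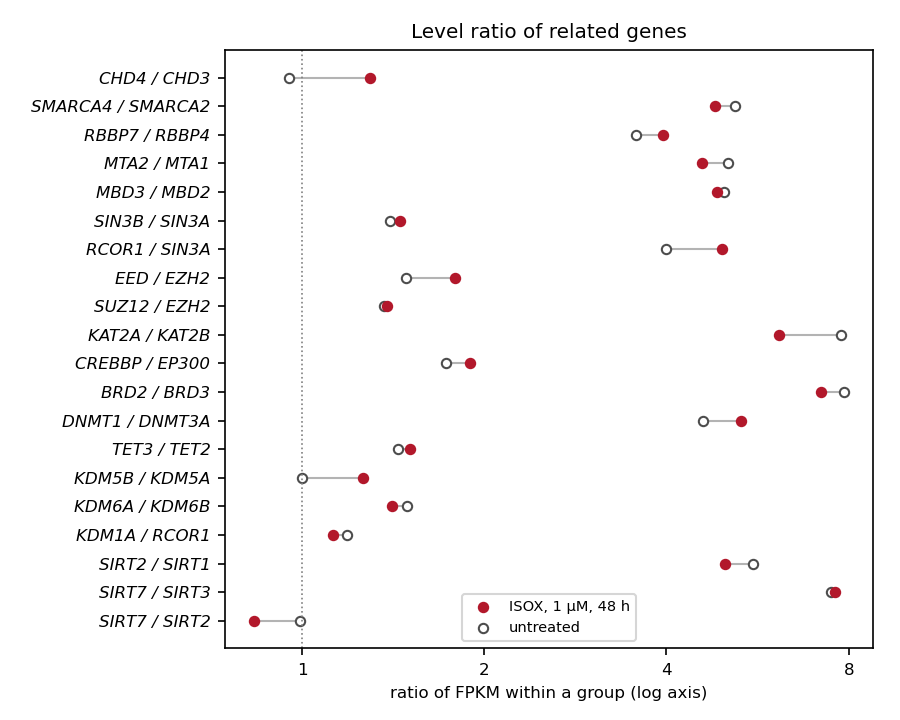
Ratio of the FPKM of related genes within each group (log axis), with ISOX (filled red) and in untreated cells (open grey); the dotted line marks a ratio of 1. The ratio of CHD4 to CHD3 lies on different sides of 1 in the 2 groups (1.30 with ISOX and 0.952 untreated). That of KDM5B to KDM5A was 1.26 with ISOX and level in untreated cells (0.998), and the other pairs shown keep their order. None of these ratios carries an error.

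Other genes with related roles were followed in a wider list of 218 genes, sorted into the same 10 classes. Beside partners of the same complexes, it holds the other Polycomb genes (PRC1 and BAP1 with its ASXL partners) under PRC2, further lysine and arginine methyltransferases of histones under the methyltransferases, other ATP-dependent remodelers under SWI/SNF, and enzymes that make or use NAD with regulators of SIRT1 under the sirtuins. Of the 218, 217 had a row, 11 under an older symbol, and 202 reached 1 FPKM. Of these, 4 were past 1.5-fold higher and 3 lower, 3.47% in all, where 10.5% of the rows were, and their median was −0.07 on the centred scale. HAT1, which acetylates newly made histone H4 before its deposition, was at 107 FPKM with ISOX and 53.7 FPKM in untreated cells (log2 1.00, centred 0.79). DPY30, a shared subunit of the KMT2 and SETD1 complexes, was at 125 FPKM with ISOX and 67.5 FPKM untreated (log2 0.89, centred 0.68). TBL1X, a subunit of the NCoR complex, was at 3.71 FPKM with ISOX and 2.05 FPKM untreated (log2 0.85, centred 0.64). GADD45B, a stress-induced gene that has been tied to active DNA demethylation, had the largest value of the wider list, at 26.5 FPKM with ISOX and 12.2 FPKM untreated (log2 1.12, centred 0.91).
The 3 lower genes all had a mean below 10 FPKM. KDM4B, a demethylase of lysine 9 of histone H3, was at 6.23 FPKM with ISOX and 8.84 FPKM in untreated cells (log2 −0.50, centred −0.71). ING5, a reader subunit of KAT6A and KAT7 complexes, was at 2.82 FPKM with ISOX and 3.69 FPKM untreated (log2 −0.39, centred −0.60), and SAP25, a SIN3 subunit, at 1.34 FPKM with ISOX and 1.84 FPKM untreated (log2 −0.45, centred −0.66). As deposited, 8 of the 202 genes of the wider list at 1 FPKM or more were past 1.5-fold higher and 0 lower, where 12.4% and 2.25% of all rows were. UHRF1, which guides DNMT1 to newly replicated DNA, lay just inside the bound, at 18.4 FPKM with ISOX and 23.7 FPKM untreated (log2 −0.36, centred −0.57).

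**Figure D5:**
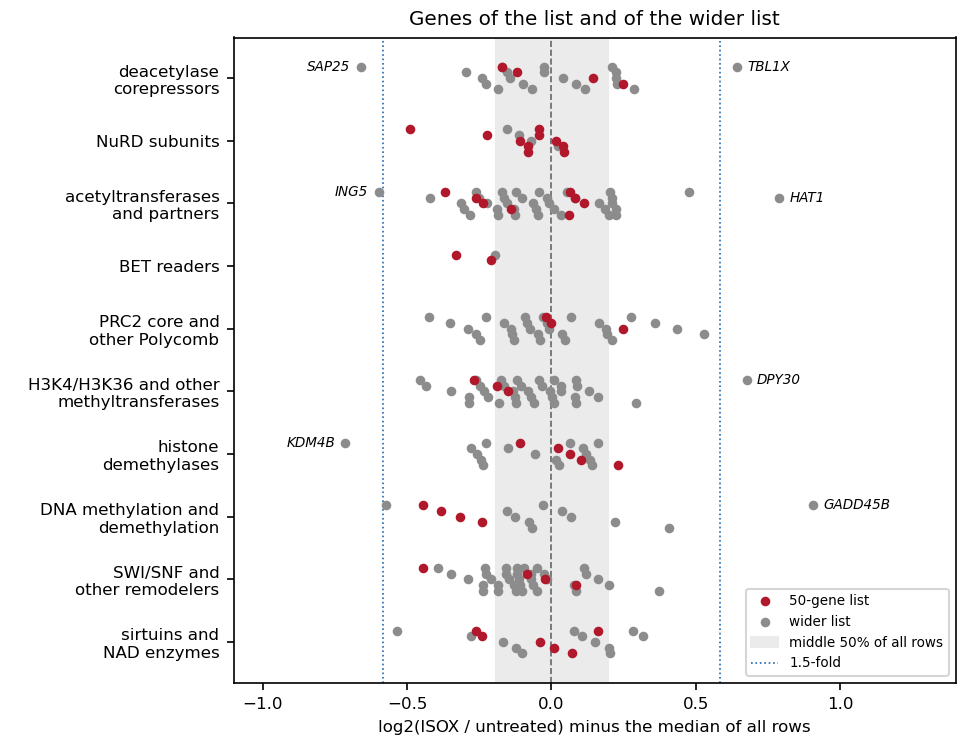
Centred log2 difference between ISOX and untreated cells by class, for the 49 genes of the list (red) and 202 further genes of related roles (grey), all at 1 FPKM or more, with the wider content of a class added to its name; the band holds the middle 50% of all rows and the dotted lines mark 1.5-fold. The 7 named grey points lie past the dotted lines and no red point does.

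The choice of genes did not use sequence features. Their medians differed from those of all rows for transcripts and of all annotated windows for promoters, with exceptions among the genes. The longest coding transcripts of the 49 genes in GENCODE (release 29) had a median of 5754 bases and a GC content of 52.3%. Over the 11196 rows with a known length the medians were 3297 bases and 48.6%. Where the gene of a row had no coding transcript, its longest transcript of another type was taken, so these rows also hold noncoding RNAs. With the rows split by transcript length into 3 parts of like size, 35 of the 49 genes fell in the longest, 7 in the middle and 7 in the shortest. In the same order, 6.51%, 8.90% and 13.9% of all rows were past 1.5-fold, so that the background of long transcripts is smaller than that of all rows. Across the 49 genes the centred value had a Spearman's rho of −0.24 with length and −0.30 with GC content, and across the 11196 rows of −0.12 and −0.29. These are descriptions across genes, which share libraries and are not independent. Of the 50 genes, 30 had no stretch of 75 bases, the read length, in a transcript of another annotated gene on either strand. Another 10 shared up to 10% of their stretches and 10 more than 10%. Those above 10% were CHD4, SMARCB1, KAT5, SIRT5, RBBP4, BRD3, KMT2A, MTA1, MBD3 and KAT2A. How reads from shared stretches were assigned was not tested for any of them, nor for the level ratios that use them.
In RefSeq (GRCh38.p14), 47 of the 50 genes had 73 promoter windows of 300 bases, each spanning an annotated start. Their median number of CG dinucleotides was 30, against 14 over all 35116 windows, and their median GC content was 69.3% against 58.7%. The letters GGGCGG, on either strand, stood in 72.6% of them and in 45.0% of all windows, CCAAT in 27.4% and 34.6%, and TATAAA in 4.11% and 11.5%. All windows cover 27305 genes, more than the 11915 rows at 1 FPKM or more, to which they were not limited. How far these differences hold for any gene at that level was not tested. A window of each of the genes at both ends of the list's range is printed here with each CG in capitals, 5′ to 3′ on the plus strand, to show what such a window holds: EED at chr11:86244503-86244802 with 16 CG, and CHD3 at chr17:7888539-7888838 with 10, both below the median of the list and CHD3 also below that of all windows. Both windows lie inside the rows of their genes, which begin at 86244384 for EED and at 7884805 for CHD3. Whether the starts in these windows are the ones used in CD18/HPAF cells cannot be read from the table.
EED: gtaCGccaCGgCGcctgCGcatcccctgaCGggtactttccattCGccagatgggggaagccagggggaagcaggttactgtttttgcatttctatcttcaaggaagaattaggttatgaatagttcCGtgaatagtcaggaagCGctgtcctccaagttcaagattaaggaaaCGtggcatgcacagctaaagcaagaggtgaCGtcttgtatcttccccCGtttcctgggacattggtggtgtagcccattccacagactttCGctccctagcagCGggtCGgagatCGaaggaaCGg
CHD3: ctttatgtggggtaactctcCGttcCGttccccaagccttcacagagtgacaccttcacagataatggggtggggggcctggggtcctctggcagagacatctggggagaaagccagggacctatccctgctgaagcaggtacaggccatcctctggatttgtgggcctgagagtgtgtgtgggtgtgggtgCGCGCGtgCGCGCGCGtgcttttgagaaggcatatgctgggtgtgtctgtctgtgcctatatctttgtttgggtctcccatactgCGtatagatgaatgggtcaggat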

How the data were processed

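RNA from CD18/HPAF cells with ISOX (12 samples) or untreated (12 samples) was sequenced by the authors as paired reads of 75 bases. Per the submitters' processing notes, the tools were Bowtie, TopHat, Cuffdiff and Cufflinks, and the build was hg38. Their versions, annotation and strand setting are not stated in the labels or the methods. The authors deposited FPKM values pooled to 1 value per gene and group. The other columns hold the authors' own comparison (test status, fold change, test statistic, p and q) and were not used. The FPKM values carry no depth or replicate spread, and no test was run on them.

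Groups were taken from the sample titles. Log2 ratios, centred values, class medians and counts past 1.5-fold were computed over the rows with a mean of at least 1 FPKM, with scripts checked on simulated data. The members and lists were chosen with earlier results of these data known. The genes named follow a rule: in each class the most abundant gene and those with the highest and lowest centred value, members past the fold or under 1 FPKM, and up to 3 genes past the fold per class of the wider list. Any other member could be named, and UHRF1 and SIRT4 were chosen after their values were seen. Starts count from 1. Of the 11915 rows, 249 join several gene names. KAT14 had no match. Alternatives were the centring, pseudocounts of 1 and 0.1, minimum levels, joined rows and the fold. Python 3.11.15, numpy 2.4.6, pandas 2.3.3, scipy 1.17.1 and matplotlib 3.10.9 were used.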

Additional observations from a re-analysis of the deposited data

How the results depend on the processing

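No member was past 1.5-fold higher under any alternative run, and the number lower was 0 without centring, with centring on rows at 10 FPKM or more, with either pseudocount, with a minimum of 5 FPKM, without joined rows and at 2-fold. With the groups scaled to equal sums of FPKM, 3 members were lower, CHD3, DNMT3A and ARID1A (−0.67, −0.62 and −0.62); without a minimum level 1 was, DNMT3B; and at a bound of 25% 6 were. The median of the members, −0.08, was 0.13 without centring and −0.26 with equal sums, and lay between −0.12 and −0.06 under the other alternatives. The shifts without centring and with equal sums follow from the value subtracted. No paired analysis was possible because the table holds 1 pooled value per group, and for the same reason no replicate could be left out. Depth is unknown, so differences of low genes such as EP300, TET2 and KAT2B cannot be weighed against counting error.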
